A study of Homo sapiens with 3 samples.

Results

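Imprinted genes are transcribed mainly from the copy inherited from 1 parent, and 10 of them were followed here through stem cell-derived endocrine cells: DLK1, MEG3, H19, IGF2, PEG10, PEG3, CDKN1C, SNRPN, NNAT and PLAGL1. They were chosen by name, and 9 of the 10 had a row by symbol among the 33538 genes of the deposited tables. No row carried the symbol H19, the maternally expressed RNA beside IGF2, so H19 was not analysed here. The cells were H1 cells, a line of human embryonic stem cells, taken through a protocol toward beta cells and profiled with 10x Genomics droplet sequencing. The KO library was PAX6-/-, the HET library PAX6+/- and the WT library carried no PAX6 lesion, and all 3 shared the H1 background. Each genotype had 1 library. PAX6 encodes a paired-box transcription factor that islet endocrine cells need. The sources used here do not give the position of the lesion, the number of clones per genotype or the day of collection. With 1 library per genotype, no difference between genotypes could be tested against the spread between differentiations, and the comparisons shared libraries: WT served KO and HET, and each edited library was also set against the other.

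At an imprinted locus a control region carries DNA methylation on 1 parental copy, laid down in the germ line and kept in body tissues. The methylated and unmethylated copies then express different genes of the same cluster, so that a maternally expressed RNA such as MEG3 lies beside a paternally expressed gene such as DLK1. Several of these genes act on growth, among them the growth factor gene IGF2 and the cell cycle inhibitor gene CDKN1C, and loss of CDKN1C or gain of IGF2 is known from human disorders of insulin excess and overgrowth. Methylation and parental origin were not measured in these libraries. Counts summed over both copies of a gene are described here.

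Promoter sequences were found for 4 of the 10 genes (MEG3, H19, SNRPN and PLAGL1, 13 windows in all) in the RefSeq table of GRCh38.p14. Of these, 3 are printed because they lie in regions known to be methylated on 1 parental copy, and MEG3 and PLAGL1 were the lowest members with any counts. The MEG3 window is chr14:100825858-100826157 (plus strand), the SNRPN window chr15:24954737-24955036 (plus strand) and the PLAGL1 window chr6:144008210-144008509 (minus strand). Each runs from 250 bases before to 50 bases after a transcript start, 5′ to 3′, and capitals mark every CpG, the dinucleotide that is methylated.
MEG3: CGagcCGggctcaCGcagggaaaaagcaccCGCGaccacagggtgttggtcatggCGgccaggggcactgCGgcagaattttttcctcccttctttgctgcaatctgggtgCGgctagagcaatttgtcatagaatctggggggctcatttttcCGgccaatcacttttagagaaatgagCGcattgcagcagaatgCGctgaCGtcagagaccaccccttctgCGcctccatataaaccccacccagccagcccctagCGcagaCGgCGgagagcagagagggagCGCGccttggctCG
SNRPN: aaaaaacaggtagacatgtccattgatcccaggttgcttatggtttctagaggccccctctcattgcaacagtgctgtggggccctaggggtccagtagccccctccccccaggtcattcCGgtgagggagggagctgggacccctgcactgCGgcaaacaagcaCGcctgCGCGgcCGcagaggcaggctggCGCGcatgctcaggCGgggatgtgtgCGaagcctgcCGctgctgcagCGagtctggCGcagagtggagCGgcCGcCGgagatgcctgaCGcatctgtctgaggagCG
PLAGL1: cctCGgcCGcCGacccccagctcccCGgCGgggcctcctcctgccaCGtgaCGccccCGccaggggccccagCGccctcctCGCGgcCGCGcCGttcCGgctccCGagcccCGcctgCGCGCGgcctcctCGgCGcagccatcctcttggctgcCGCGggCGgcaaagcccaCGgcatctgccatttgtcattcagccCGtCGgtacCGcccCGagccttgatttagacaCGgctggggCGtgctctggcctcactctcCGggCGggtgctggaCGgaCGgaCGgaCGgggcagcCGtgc
The MEG3 window held 19 CpGs, the SNRPN window 18 and the PLAGL1 window 39, against a median of 14 over 35116 promoter windows. Of all windows, 42.9% had as many CpGs as MEG3 or more, 44.5% as many as SNRPN and 8.71% as many as PLAGL1. The letters TGCCGC, the core of the sequence bound by the imprint-keeping factor ZFP57 when methylated, were searched on both strands. They stood at 1 place in the MEG3 window, at 2 in the SNRPN window and at 2 in the PLAGL1 window, and 16.7% of all promoter windows held them at least at 1 place. A match describes the letters and not a bound site.

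Cells were split by CHGA, which encodes the granule protein chromogranin A of endocrine cells. CHGA-high cells had at least 10 CHGA UMIs per 10000 UMIs of the cell, and the others were CHGA-low. There were 1122 CHGA-high cells of 8785 in the KO library, 638 of 8468 in HET and 1649 of 8662 in WT, with median depths of 12710 UMIs in KO, 13363 in HET and 13427 in WT. The endocrine genes CHGB, SCG2, SCG3, SCGN, PAX6, NEUROD1, INSM1 and PCSK1 were all higher in CHGA-high cells of every library. PAX6 RNA was still present in KO, at 259 CPM (UMI counts scaled to a total of 1000000) against 215 CPM in HET and 292 CPM in WT, so its level does not check the genotype. Cells led by insulin, the hormone of the labelled beta cell, were 48 of the KO, 80 of the HET and 196 of the WT CHGA-high cells, so neither class of cells is a pure beta cell population. The median mitochondrial share of UMIs in CHGA-high cells, a sign of RNA quality, was 8.98% in KO, 8.41% in HET and 6.41% in WT, and its part in the differences below was not tested. Cell barcodes shared between libraries numbered 26 for KO and WT, 43 for HET and WT and 30 for KO and HET.

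No member was all-or-none between the libraries. All-or-none meant at least 50 CPM in 1 library and at most 5 CPM in another of the same class of cells, and 0 of the 9 members met it in CHGA-high cells, where 6 reached 50 CPM, and 0 of 9 in CHGA-low cells, where 5 did. Over all genes, 0.11% met it in CHGA-high cells (4 of 3630 with 50 CPM in a library) and 0.0805% in CHGA-low cells (3 of 3728). The CHGA-high genes were MLN, SLC30A8, IAPP and FFAR1, and the CHGA-low genes were SST, CXCL14 and PYY. These 7 genes were not members and are named because so few genes met the rule. PEG3 was listed at 0 in KO, HET and WT, and MEG3 was close to 0 in all 3.

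**Figure D1:**
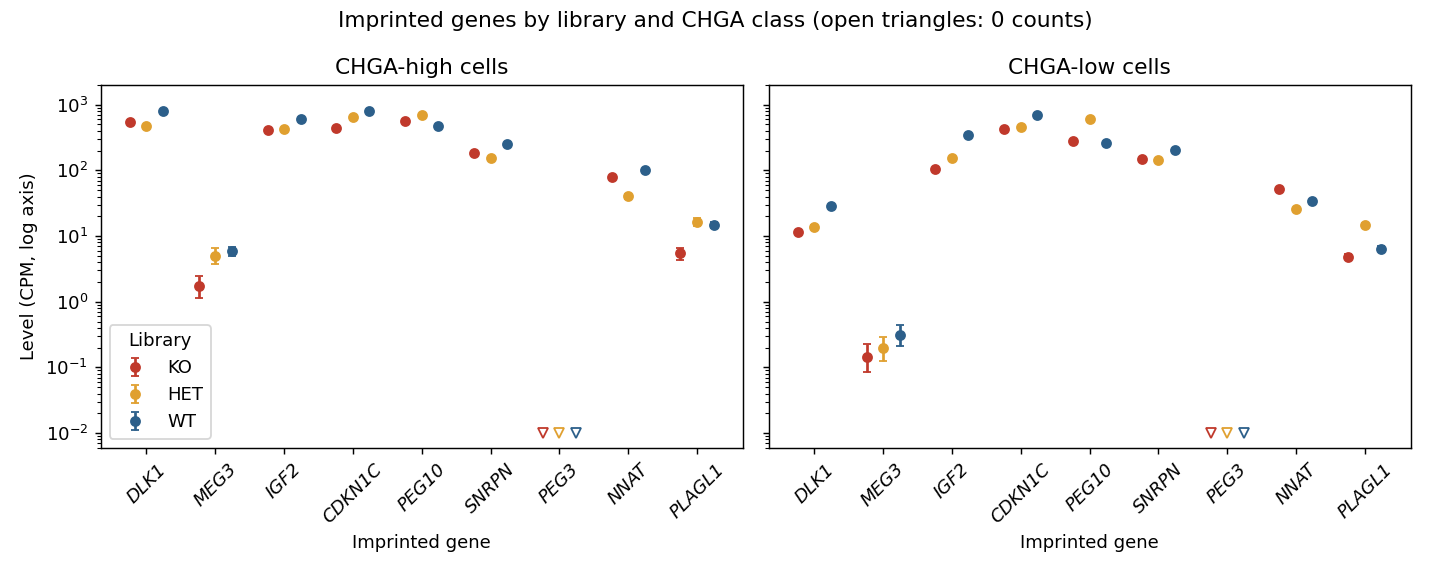
Level of each imprinted gene in CPM (log axis) in the KO, HET and WT libraries, in CHGA-high cells (left) and CHGA-low cells (right), 1 library per genotype. Bars are exact 95% Poisson intervals that cover counting error only, and open triangles mark 0 counts. PEG3 has 0 counts in all 6 sums, MEG3 stays below 6.91 CPM at the upper end of every interval, and DLK1 separates the classes of cells more than the libraries.

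PEG3, a paternally expressed zinc finger gene on chromosome 19 (56810077 to 56840728, minus strand, GRCh38), had 0 UMIs in KO, 0 in HET and 0 in WT. That held over all deposited barcodes, with 145948590 UMIs in KO, 136834433 in HET and 140068492 in WT. A count of 0, taken as at most 3 counts, allows up to 0.0206 CPM in KO, 0.0219 CPM in HET and 0.0214 CPM in WT. Its imprinted neighbours had almost no UMIs either. MIMT1 had 0 UMIs in each library, ZIM2 had 0 in KO, 2 in HET and 1 in WT, and USP29 had 0 in KO, 1 in HET and 0 in WT. The zinc finger gene ZNF71, 183596 bases away, had 2139 UMIs in KO, 1789 in HET and 1837 in WT, so reads of the wider region were counted. A row at 0 everywhere was not rare, since 4509 of the 33538 genes (13.4%) had no UMI in any library. Of the exon bases of PEG3, 12.9% overlap ZIM2, while none of the last 500 bases do. The data do not show whether the gene was silent or its reads were not counted.

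MEG3, a maternally expressed long noncoding RNA known as a tumour suppressor RNA, was close to absent. In CHGA-high cells it had 30 UMIs in KO, 55 in HET and 153 in WT, which is 1.71 CPM in KO (1.16 to 2.45), 5.05 CPM in HET (3.81 to 6.58) and 5.90 CPM in WT (5.00 to 6.91). The ranges in brackets here and below are exact 95% intervals and cover counting error only. CHGA-low cells had 18 MEG3 UMIs in KO, 24 in HET and 32 in WT, all under 0.45 CPM at the top of the interval. KO was 3.44-fold lower than WT in CHGA-high cells (2.31 to 5.27), but every library lay far under the 50 CPM needed for a call. The KO interval stood apart from those of HET and WT, and the HET and WT intervals overlapped. Of the WT CHGA-high UMIs, 59 came from the 196 cells led by insulin, at 20.8 CPM, against 3 UMIs in 80 HET cells and 0 UMIs in 48 KO cells of that kind. MEG8, another maternal RNA of the cluster, had 120 UMIs in KO, 65 in HET and 90 in WT, and the paternal gene RTL1 had 8 in KO, 1 in HET and 20 in WT over all barcodes.

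DLK1, the paternally expressed partner of MEG3, encodes a membrane and secreted protein related to Notch ligands that is made in fetal tissues and islet beta cells. It lies on chromosome 14 (100725705 to 100738224, plus strand, GRCh38). In CHGA-high cells its level was 542 CPM in KO (9478 UMIs), 472 CPM in HET (5143 UMIs) and 806 CPM in WT (20921 UMIs). KO was 1.49-fold lower than WT (1.45 to 1.53) and HET 1.71-fold lower (1.66 to 1.76), and KO was 1.15-fold higher than HET (1.11 to 1.19). With marker groups of cells weighing the same, KO against WT passed 2-fold (log2 ratio -1.03) and KO lay below HET (log2 ratio -0.24). Both edited libraries thus lay below WT. In CHGA-low cells it was 11.5 CPM in KO, 13.9 CPM in HET and 28.5 CPM in WT, so CHGA-high cells were 47.0-fold higher in KO (44.5 to 49.7), 33.9-fold higher in HET (32.1 to 35.8) and 28.2-fold higher in WT (27.2 to 29.4). DLK1 was the member that differed most between the classes of cells. Its CHGA-low level was 2.13% of the CHGA-high level in KO, 2.95% in HET and 3.54% in WT. This share was above that of the granule gene SCG2 (1.12% in KO, 0.898% in HET and 2.13% in WT). It was below that of the endocrine factor gene INSM1 (2.64% in KO, 3.34% in HET and 8.28% in WT). CHGB, SCG3, PCSK1 and NEUROD1 also had smaller shares than DLK1 in every library. PAX6 had a smaller share in KO (1.5%) and HET (1.36%) and a larger one in WT (3.73%). CHGA itself in CHGA-low cells was 88.4 CPM in KO, 73.4 CPM in HET and 118 CPM in WT, highest in WT as DLK1 was, and free endocrine RNA and weakly endocrine cells cannot be told apart there. In CHGA-low cells under 1 CHGA UMI per 10000 the log2 ratio of DLK1 to WT was -0.72 in KO and -0.14 in HET, in place of -1.31 and -1.03.

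The few cells with MEG3 were cells with much DLK1. A MEG3 UMI was found in 14 of 1122 KO, 20 of 638 HET and 76 of 1649 WT CHGA-high cells, and DLK1 was present in 13 of those 14 KO cells, 20 of 20 HET cells and 74 of 76 WT cells. In cells with a MEG3 UMI the median DLK1 level was 29.6 per 10000 UMIs in KO, 12.4 in HET and 22.0 in WT. In cells without one it was 1.90 in KO, 1.70 in HET and 2.43 in WT. The 2 RNAs thus stood together in the same cells in each library. Cells with MEG3 had median depths of 15546 UMIs in KO, 17422 in HET and 14778 in WT, and the others had 12702 in KO, 13275 in HET and 13320 in WT, and the part of depth was not tested. Between 3 and 19 cells per library had 3 or more MEG3 UMIs, and the highest cell, a WT cell led by insulin, had 15.

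**Figure D2:**
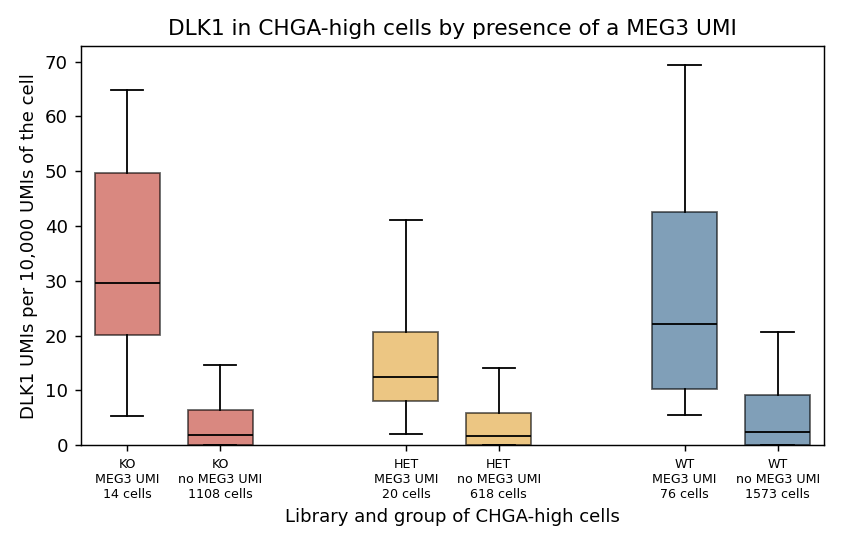
DLK1 UMIs per 10000 UMIs of the cell in CHGA-high cells with and without a MEG3 UMI, by library. Boxes run from the 25th to the 75th percentile with the median as a line, whiskers from the 10th to the 90th, and the cells of a box come from 1 library. The medians with MEG3 are 29.6 in KO, 12.4 in HET and 22.0 in WT, and without it they are at most 2.43.

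IGF2, a paternally expressed fetal growth factor gene on chromosome 11 (2129112 to 2149603, minus strand, GRCh38), lies beside the insulin gene. Its CHGA-high level was 419 CPM in KO (7334 UMIs), 423 CPM in HET (4610 UMIs) and 598 CPM in WT (15511 UMIs). KO was 1.43-fold lower than WT (1.39 to 1.47) and HET 1.41-fold lower (1.37 to 1.46). The interval of KO against HET included 1 (0.974 to 1.05). Of 5 CHGA-high marker groups compared, KO was below WT in 4 and above it in 1, the cells led by insulin. Their IGF2 level was 538 CPM in KO (487 to 593), 355 CPM in HET and 437 CPM in WT (413 to 462). IGF2 was lower in HET than in WT in all 5 groups. In CHGA-low cells it was 106 CPM in KO, 152 CPM in HET and 342 CPM in WT. There KO was 3.24-fold lower than WT (3.17 to 3.30) and HET 2.26-fold lower (2.22 to 2.30). Counts of calls here and below cover only genes at 50 CPM or more in 1 of the 2 sums, for members and for all genes alike. Of the members at that level, 1 of 5 was 2-fold lower in KO than in WT and 1 of 4 in HET than in WT, IGF2 each time, beside 1.66% and 1.2% of all genes. DLK1, under that level, was 2.48-fold lower in KO and 2.05-fold lower in HET. No member at that level was 2-fold higher in KO than in WT there (0.519% of all genes). With marker groups of cells weighing the same, the log2 ratio of HET to WT was -0.99, just under 2-fold. CHGA-high cells were 3.96-fold above CHGA-low cells in KO, 2.79-fold in HET and 1.75-fold in WT.

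The IGF2 difference ran through most kinds of CHGA-low cells. These cells were divided into 12 groups by their leading marker genes, cells with no leading set being 1 of the groups, and 11 had 20 or more cells in every library. IGF2 was lower in KO than in WT in 11 of the 11 groups, 9 of them by 2-fold or more, and lower in HET than in WT in 11 of 11, 7 of them by 2-fold or more. The smallest difference from WT, in cells led by LYZ and LPL, was 1.43-fold lower in KO and 1.17-fold lower in HET. Levels were highest in cells led by NOS1, DKK1 and NTS, at 299 CPM in KO, 325 CPM in HET and 618 CPM in WT, and lowest in cells led by MYOF, KRT7 and PIEZO2, at 25.6 CPM in KO, 41.4 CPM in HET and 75.4 CPM in WT. That lowest group made up 1446 of 7663 KO cells, 294 of 7830 HET cells and 287 of 7013 WT cells. Groups of 1 library share their cells' source and are not replicates. IGF2 had another row, with 0 counts in the kept cells, and 73.7% of its exon bases and the whole of its last 500 bases overlap that model or INS-IGF2. Its counts therefore depend on how reads were assigned.

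CDKN1C encodes p57, a maternally expressed inhibitor of cyclin-dependent kinases that holds cells out of division, on chromosome 11 (2883213 to 2885773, minus strand, GRCh38). Its CHGA-high level was 435 CPM in KO (425 to 445), 645 CPM in HET (630 to 660) and 799 CPM in WT (789 to 810). KO was 1.84-fold lower than WT (1.79 to 1.89) and HET 1.24-fold lower (1.21 to 1.27), so KO was lowest and WT highest. In CHGA-low cells it was 427 CPM in KO, 463 CPM in HET and 698 CPM in WT, 1.63-fold lower in KO than in WT and 1.51-fold lower in HET. None of these sums reached 2-fold, although the direction held in 11 of 11 CHGA-low groups in KO and 11 of 11 in HET. By group, KO was 2-fold or more below WT in 2 of 5 CHGA-high groups (at most 2.25-fold) and in 2 of 11 CHGA-low groups. HET was so in 0 of 5 and in 1 of 11. Of 5 CHGA-high groups with 20 or more cells per library, 1 had KO above WT, the cells led by GCG, the glucagon gene. Their level was 809 CPM in 24 KO cells (717 to 910), 541 CPM in 118 HET cells and 766 CPM in 447 WT cells. The KO interval included the WT level. Of the CHGA-high groups of 20 or more cells, those led by ghrelin, GHRL, had the most CDKN1C in KO (1064 CPM, 111 cells) and in HET (1195 CPM, 36 cells). CDKN1C was at 958 CPM (852 to 1072) in the 19 WT cells led by GHRL, also below KO. The paternally expressed antisense RNA of its cluster, KCNQ1OT1, was at 269 CPM in KO, 344 CPM in HET and 286 CPM in WT CHGA-high cells, within 2-fold in every comparison.

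PEG10 is a paternally expressed gene derived from a retrotransposon and needed for the mouse placenta. Its summed counts were higher in HET than in KO and WT in both classes of cells. It lies on chromosome 7 (94656325 to 94669695, plus strand, GRCh38). In CHGA-low cells its level was 282 CPM in KO (34850 UMIs), 612 CPM in HET (74424 UMIs) and 264 CPM in WT (27037 UMIs). HET was 2.32-fold higher than WT (2.28 to 2.35) and KO was 2.17-fold lower than HET (2.14 to 2.20), whereas KO was 1.07-fold higher than WT (1.05 to 1.08). The middle genotype thus stood above both others. At 50 CPM or more, 1 of 4 members was 2-fold higher in HET than in WT, beside 0.438% of all genes, and 1 of 5 was 2-fold lower in KO than in HET, beside 0.827% of all genes. PEG10 was the member in each case. HET was above WT in 11 of 11 groups of CHGA-low cells, by 1.78-fold to 3.92-fold and in 8 by 2-fold or more. KO was below HET in 11 of 12 groups, but by 2-fold in 2 of them only, and with the groups weighing the same KO was below HET by 0.75 on the log2 scale, which is under 2-fold.

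In CHGA-high cells PEG10 was 572 CPM in KO, 687 CPM in HET and 478 CPM in WT. KO was 1.20-fold higher than WT (1.17 to 1.23) and HET 1.44-fold higher (1.40 to 1.48), with the HET sum again the highest but within 2-fold. By cell, KO was the highest. The median was 3.43 PEG10 UMIs per 10000 in KO, 2.75 in HET and 1.88 in WT. After thinning to 3000 UMIs, 65.1% of KO, 57.8% of HET and 47.15% of WT CHGA-high cells had a PEG10 UMI. KO lay above HET in 3 of 6 CHGA-high groups and below it in 3. Cells led by GHRL had the highest levels of the CHGA-high groups in KO, at 813 CPM, and in HET, at 1632 CPM, but not in WT, where 19 such cells were at 364 CPM. The most PEG10 UMIs in 1 cell were 852, in a WT CHGA-high cell of 15237 UMIs, and the highest KO and HET CHGA-high cells had 416 and 344. SGCE, the paternally expressed sarcoglycan gene that shares its promoter region with PEG10, was 41.5 CPM in KO, 56.7 CPM in HET and 46.5 CPM in WT CHGA-low cells, highest in HET like PEG10 but within 2-fold of both others.

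**Figure D3:**
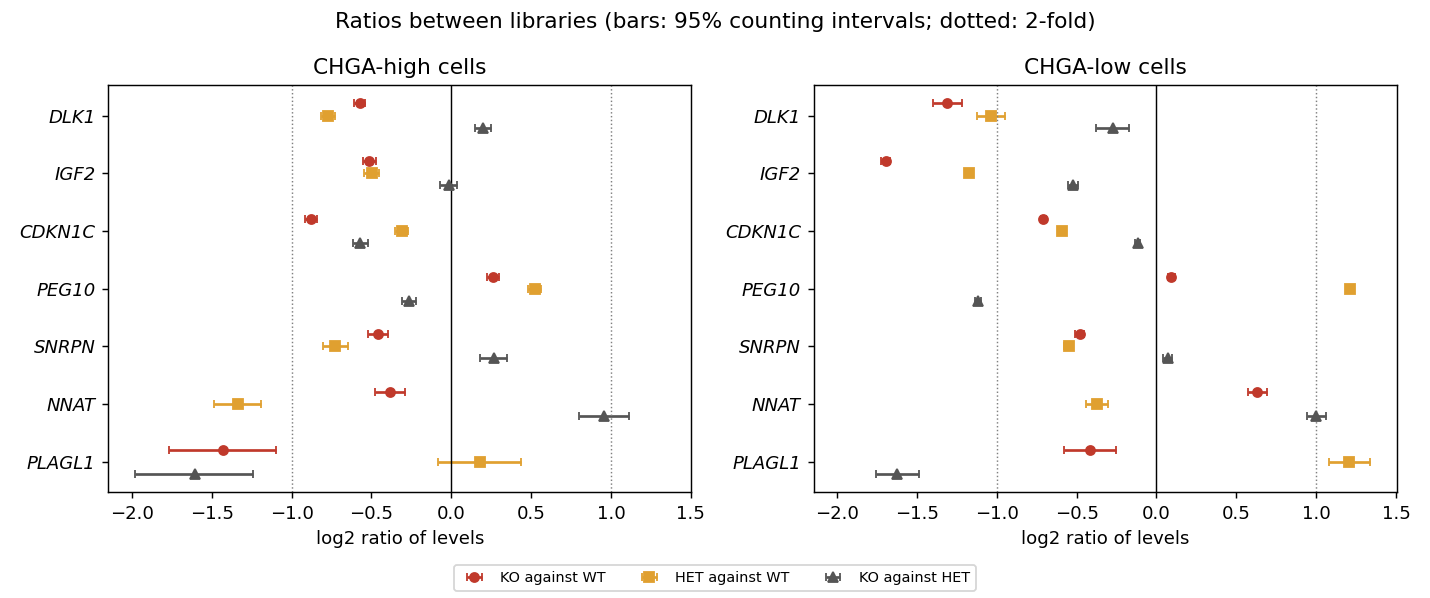
log2 ratios of the level of each imprinted gene between libraries (KO against WT, HET against WT, KO against HET) in CHGA-high cells (left) and CHGA-low cells (right), with exact 95% counting intervals. Dotted lines mark 2-fold. IGF2 lies left of the line for KO and HET against WT and PEG10 right of it for HET against WT in CHGA-low cells, and NNAT left of it for HET against WT in CHGA-high cells. MEG3 and PEG3 are not drawn, and DLK1 in CHGA-low cells and PLAGL1 were under 50 CPM.

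NNAT, the paternally expressed gene of neuronatin, a small membrane protein of the endoplasmic reticulum that acts on insulin maturation in mouse beta cells, lies on chromosome 20 (37521206 to 37523693, plus strand, GRCh38). Its CHGA-high level was 78.1 CPM in KO (1367 UMIs), 40.3 CPM in HET (439 UMIs) and 102 CPM in WT (2645 UMIs). HET was 2.53-fold lower than WT (2.28 to 2.80), KO was 1.30-fold lower than WT (1.22 to 1.39) and KO was 1.94-fold higher than HET (1.74 to 2.16). HET was the lowest library here. The median CHGA-high cell had more NNAT in KO (0.555 per 10000 UMIs) than in WT (0.256). With cells thinned to 3000 UMIs, 22.25% of KO, 10.7% of HET and 20.96% of WT cells had a NNAT UMI. The lower KO sum is thus not a fall in the typical cell. Of the 6 members at 50 CPM or more NNAT was the 1 called in CHGA-high cells between libraries. It was called in HET against WT, where 0.864% of all genes were 2-fold lower in HET. None of the 6 was 2-fold higher in HET than in WT (0.547% of all genes), 2-fold higher or lower in KO than in WT (1.4% and 2.77% of all genes) or 2-fold higher or lower in KO than in HET (0.352% and 1.12%). The KO difference from HET passed 2-fold with plain CPM, at a log2 ratio of 1.02, and with stricter cell filters, at 1.04.

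Among cells led by insulin NNAT was 64.1 CPM in KO, 21.3 CPM in HET and 173 CPM in WT, 8.10-fold lower in HET and 2.70-fold lower in KO than in WT. Among cells led by GCG it was 69.4 CPM in KO, 17.5 CPM in HET and 97.7 CPM in WT. In all 5 CHGA-high groups with 20 or more cells per library, NNAT was lower in KO and lower in HET than in WT. Outside the endocrine cells the order of the sums changed. In CHGA-low cells NNAT was 52.4 CPM in KO, 26.2 CPM in HET and 33.9 CPM in WT, with KO 1.55-fold higher than WT (1.49 to 1.61) and HET 1.29-fold lower. KO was above WT in 11 of 11 CHGA-low groups and HET below WT in 11 of 11. The KO and WT intervals overlapped in cells led by LYZ and LPL and in those led by ADA, CDX1 and SFRP5. They also overlapped in cells led by MKI67, TOP2A and CDK1 and in those led by COL1A1, COL3A1, LUM, DCN and PDGFRB. In the sums KO stood just past 2-fold above HET (1.92 to 2.09). That call ended under every other scaling and choice of cells tried, at log2 ratios of 0.93 to 1.00. Of all genes, 0.456% were 2-fold higher in KO than in HET there. CHGA-high cells were above CHGA-low cells by 1.49-fold in KO, 1.54-fold in HET and 3.01-fold in WT. BLCAP, in whose intron NNAT lies, was at most 29.3 CPM in every sum.

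**Figure D4:**
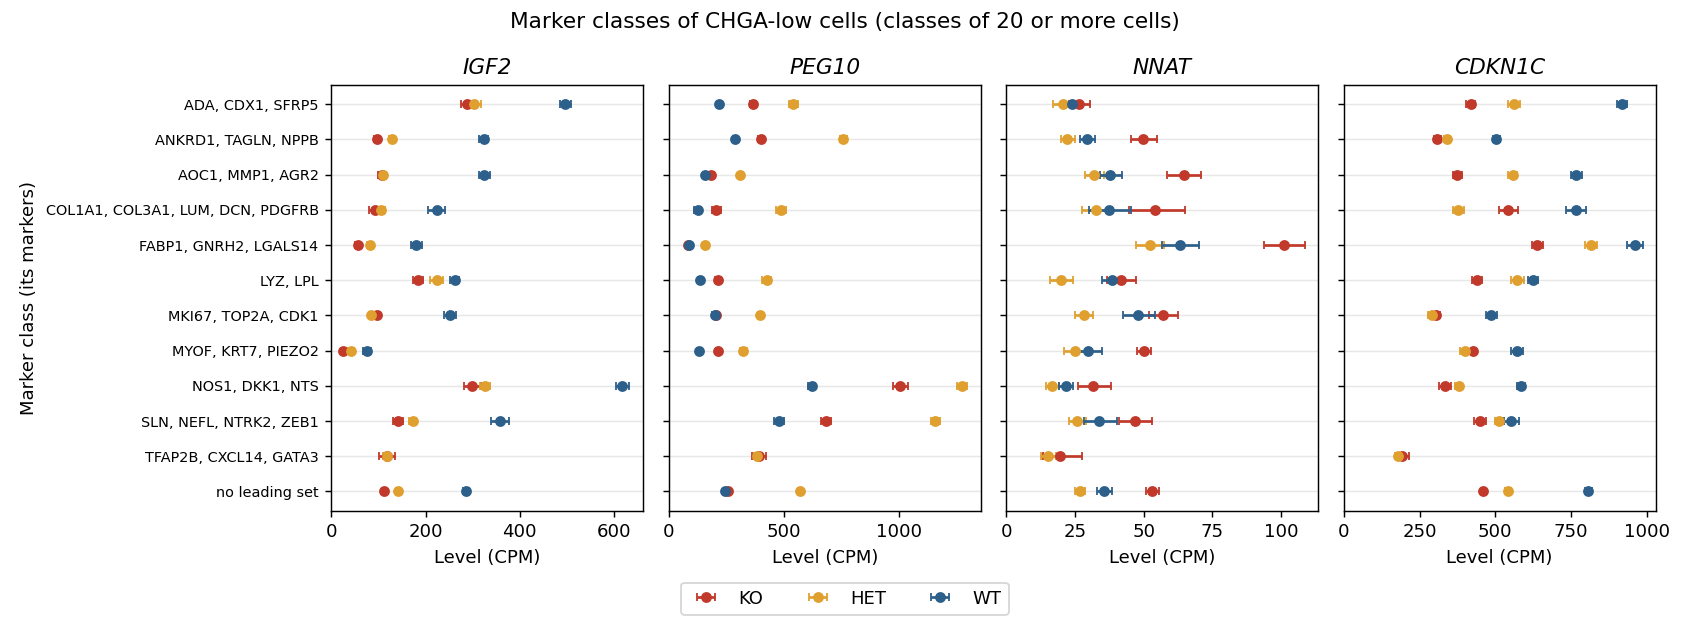
Level in CPM of IGF2, PEG10, NNAT and CDKN1C in groups of CHGA-low cells named by their leading markers, in the KO, HET and WT libraries, for groups of 20 or more cells. Bars are exact 95% counting intervals. IGF2 and CDKN1C are highest in WT in all 11 groups that have a WT point, PEG10 is highest in HET in these 11 groups, and NNAT is highest in KO and lowest in HET in them. The row of TFAP2B, CXCL14 and GATA3 has no WT point because that library held 2 such cells.

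SNRPN encodes a protein of the spliceosome, is expressed from the paternal copy and lies in the Prader-Willi region of chromosome 15 (24823637 to 24978723, plus strand, GRCh38). Its CHGA-high level was 184 CPM in KO, 153 CPM in HET and 253 CPM in WT, 1.38-fold lower in KO than in WT (1.32 to 1.43) and 1.65-fold lower in HET (1.57 to 1.75). In CHGA-low cells it was 149 CPM in KO, 142 CPM in HET and 208 CPM in WT, 1.40-fold lower in KO and 1.46-fold lower in HET. The SNRPN sum was therefore below WT in both edited libraries and in both classes of cells, by less than 2-fold each time. SNRPN was below WT in all 11 CHGA-low groups in each. Of 5 CHGA-high groups, KO was below WT in 4 and above it in cells led by GCG, at 280 CPM (227 to 342) against 239 CPM. HET was below WT in all 5, by 2.41-fold in cells led by TPH1. SNRPN differed little between the classes of cells, with CHGA-high cells 1.24-fold higher in KO, 1.08-fold in HET and 1.22-fold in WT. Of 2 other paternally expressed RNAs of the region, NDN had the same order of libraries in CHGA-high cells and PWAR6 was lowest in WT. NDN was 86.9 CPM in KO, 80.5 CPM in HET and 106 CPM in WT, and PWAR6 was 100.2 CPM in KO, 95.2 CPM in HET and 74.2 CPM in WT. In CHGA-low cells NDN too was lowest in WT, at 65.7 CPM in KO, 66.9 CPM in HET and 61.8 CPM in WT. SNRPN shares 29.4% of its exon bases and 36.6% of its last 500 bases with SNURF and another gene model. Its counts therefore depend on how such reads were assigned. Over all barcodes SNURF had 382 UMIs in KO, 351 in HET and 261 in WT. The other model had 2732 in KO, 2462 in HET and 1773 in WT, and both were thus lowest in WT.

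PLAGL1, a paternally expressed zinc finger gene whose overexpression is a known cause of transient neonatal diabetes, was low in the sums over CHGA-high and CHGA-low cells. It lies on chromosome 6 (143940300 to 144064599, minus strand, GRCh38). In CHGA-high cells it was 5.43 CPM in KO (95 UMIs), 16.5 CPM in HET (180 UMIs) and 14.6 CPM in WT (379 UMIs), 2.69-fold lower in KO than in WT (2.14 to 3.41). Of the WT UMIs, 169 came from 447 cells led by GCG and 87 from 196 cells led by insulin. KO had 24 and 48 such cells. KO was below WT in 5 of 5 CHGA-high groups, by 2-fold or more in 2 of them. The part of the make-up of cells was not tested. In CHGA-low cells PLAGL1 was 4.85 CPM in KO, 14.9 CPM in HET and 6.46 CPM in WT. HET was the highest there, 2.31-fold above WT (2.11 to 2.53), and no sum reached the 50 CPM needed for a call. Of the HET CHGA-low UMIs of PLAGL1, 41.1% (746 of 1814) came from 439 cells led by TFAP2B, CXCL14 and GATA3, which are 5.61% of the HET CHGA-low cells. KO had 104 such cells and WT had 2. Their level was 58.1 CPM in KO and 89.9 CPM in HET. In cells led by COL1A1, COL3A1, LUM, DCN and PDGFRB, PLAGL1 was 7.66 CPM in KO, 54.8 CPM in HET and 3.85 CPM in WT. A setting chosen after seeing the data left out only the cells led by TFAP2B, CXCL14 and GATA3. There the log2 ratio of HET to WT was 0.55 in place of 1.21.

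Between the classes of cells, members past the level filter were higher in CHGA-high cells where they were 2-fold apart. In KO 3 of 6 such members were 2-fold higher (DLK1, IGF2 and PEG10), beside 9.6% of all genes. In HET 2 of 5 were (DLK1 and IGF2), beside 6.81% of all genes, and in WT 2 of 6 were (DLK1 and NNAT), beside 7.94%. Under that level, MEG3 was 11.8-fold higher in KO, 25.6-fold in HET and 18.9-fold in WT, and PLAGL1 was 2.26-fold higher in WT. None was 2-fold lower, where 13.5% of all genes in KO, 9.94% in HET and 11.7% in WT were. The median log2 ratio of the members that passed the level filter was 0.80 in KO (6 members), 0.48 in HET (5 members) and 0.83 in WT (6 members), against -0.14, -0.16 and -0.18 over all genes tested. Plain CPM put those medians of all genes at 0.05 in KO, -0.05 in HET and -0.03 in WT. PEG10 in KO, at 2.03-fold (1.98 to 2.07), was under 2-fold with CHGA at 5 per 10000 (log2 ratio 0.95), with stricter cell filters (0.98) and with marker groups weighing the same (0.68). In WT it passed 2-fold with plain CPM (log2 ratio 1.00) and without the 8% of cells scored highest as doublets (1.01).

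Members differed in how evenly they were spread over cells. Each cell was thinned to 3000 UMIs, which left out between 20 and 117 cells per class and library. After thinning DLK1 was detected in 52.9% of CHGA-high cells in KO (49.8 to 55.9), 47.1% in HET (43.1 to 51.1) and 56.3% in WT (53.8 to 58.8). Had all cells of a library held the same level, it would have been detected in 85.6% in KO, 80.0% in HET and 93.9% in WT. DLK1, IGF2, PEG10 and CDKN1C were all concentrated in part of the CHGA-high cells in this sense. NNAT was so in WT, detected in 20.96% of cells against 31.6% for an even spread. It was closer to even in KO (22.25% against 24.4%) and in HET (10.7% against 12.4%). The tenth of CHGA-high cells richest in DLK1 held 55.5% of its UMIs in KO, 52.5% in HET and 55.0% in WT. SNRPN was close to even, detected in 43.4% of cells in KO, 38.8% in HET and 51.4% in WT, against 44.6%, 40.2% and 53.4% for an even spread. Without thinning DLK1 was detected in 72.3% of CHGA-high cells in KO, 69.4% in HET and 73.9% in WT. In CHGA-low cells DLK1 was detected after thinning in 2.21% of KO, 2.46% of HET and 4.66% of WT cells, where GCG, a hormone gene of endocrine cells, was detected in 1.14% of KO, 19.8% of HET and 50.9% of WT cells. The median depth of those CHGA-low cells was 15667 UMIs in KO, 14122 in HET and 14664 in WT. The DLK1 shares lay below the GCG shares in HET and WT and above the GCG share in KO, whose GCG-led cells were few. They are not read as expression, since free RNA can give such shares.

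**Figure D5:**
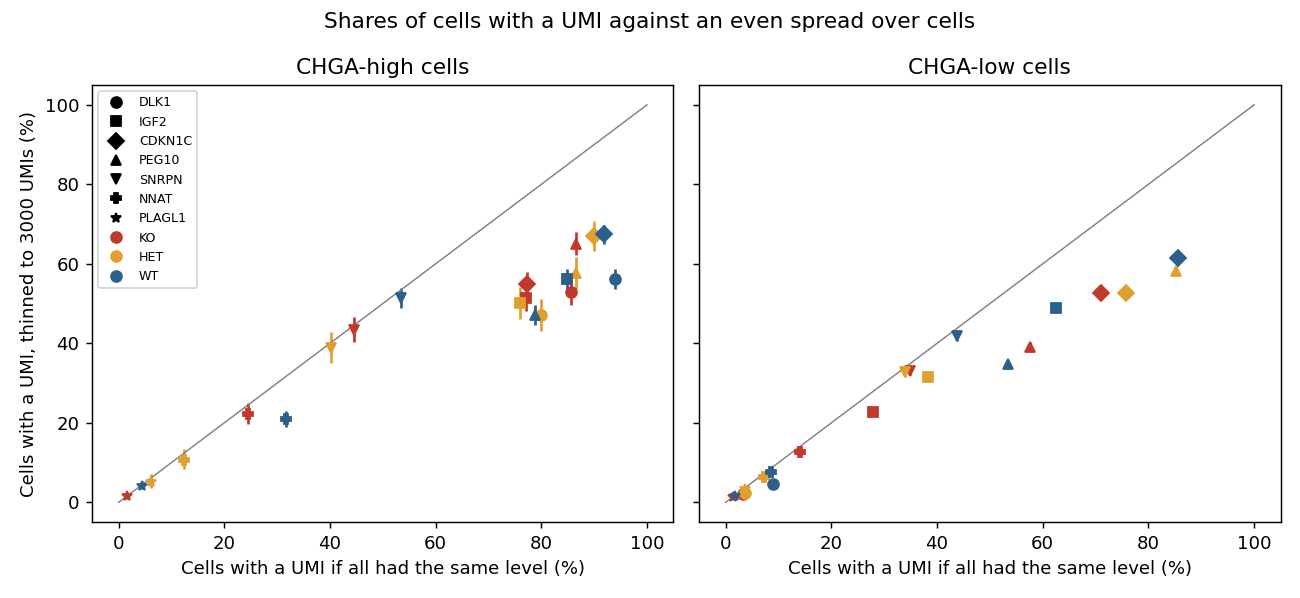
Percent of cells with a UMI of each imprinted gene after thinning every cell to 3000 UMIs (vertical axis) against the percent that would have one if all cells of the library and class held the same level (horizontal axis), in CHGA-high cells (left) and CHGA-low cells (right). Symbols are genes, colours are libraries, bars are exact 95% binomial intervals and the line marks equality. SNRPN lies close to the line, and DLK1, IGF2, PEG10 and CDKN1C lie below it in CHGA-high cells, as does NNAT in WT.

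The genes most like each member were ranked by Pearson r of log2(CPM + 5) over 53 sums (groups of at least 20 cells by library), among 3393 genes. These sums share libraries and cells, so r is a description. DLK1 was most like CNIH2 (0.96), PLXNA2 (0.95) and the granule gene SCG2 (0.95). IGF2 was most like STARD10 (0.86), GSTA4 and MT-CO1, PEG10 most like USP34 (0.80), PCDH9 and RERE, and CDKN1C most like SAR1B (0.74), ARFGAP3 and CD164. SNRPN was most like TUBB2A (0.90), FAM96B and ATP6V1F, and NNAT most like SGCB (0.73), CLCN3 and the ubiquitin gene UBB. The likeness of DLK1 to its best match was closer than that of the other 5 members ranked.

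Of 43 other imprinted genes, 37 had a row. In CHGA-high cells 9 of them passed the level filter in KO against WT and 1 was 2-fold lower, beside 2.77% of all genes. It was GNAS, which encodes the stimulatory G protein alpha subunit. GNAS was 1541 CPM in KO, 2652 CPM in HET and 3715 CPM in WT, 2.41-fold lower in KO than in WT (2.38 to 2.44). In the other comparisons between libraries, in either class of cells, none at 50 CPM or more was 2-fold apart. Of all genes, 0.352% to 1.66% were there, by comparison and direction. Between the classes, DIO3, the thyroid hormone deiodinase gene at the far end of the DLK1 cluster, was 16.5-fold higher in CHGA-high cells in KO (72.4 against 4.39 CPM) and 5.47-fold higher in WT (50.8 against 9.29 CPM). In HET it was also higher there, at 37.8 against 3.68 CPM, but under the level filter. GRB10, a growth factor receptor adaptor gene, was lower in CHGA-high cells by 3.54-fold in KO, 2.25-fold in HET and 2.75-fold in WT. MEST was 2.10-fold higher in KO and GNAS 2.41-fold higher in WT. Among those past the level filter, the median log2 ratio of the other imprinted genes to WT was 0.32 in KO and 0.20 in HET CHGA-high cells, where the members had -0.49 and -0.61 and all genes -0.03 and -0.05.

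The 14 genes of imprint maintenance and DNA methylation all had rows, and none at 50 CPM or more was 2-fold apart in any comparison. Only 4 to 6 of them passed the level filter in a comparison. Of all genes, 0.352% to 2.77% were 2-fold apart between libraries, by comparison and direction, and 6.81% to 13.5% between the classes. DNMT1, the maintenance methyltransferase gene, was 52.2 CPM in KO, 53.1 CPM in HET and 47.2 CPM in WT CHGA-high cells. TRIM28, the corepressor gene that works with ZFP57, was 101 CPM in KO, 96.8 CPM in HET and 94.8 CPM in WT, and ZNF445 was 56.6 CPM in KO, 42.4 CPM in HET and 49.9 CPM in WT. Of the 5 members of this list past the level filter in KO against WT CHGA-high cells, all lay above 1 and within 2-fold.

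Among 14 genes of the IGF axis, the partners of IGF2, the binding proteins differed most. IGFBP7 was 29.4 CPM in KO, 116 CPM in HET and 89.3 CPM in WT CHGA-high cells, 3.03-fold lower in KO than in WT (2.76 to 3.34) and 3.93-fold lower than in HET (3.54 to 4.36). In CHGA-low cells it was 165 CPM in KO, 388 CPM in HET and 380 CPM in WT, and IGFBP5 was 474 CPM in KO, 827 CPM in HET and 1111 CPM in WT. Both were 2-fold lower in KO than in WT there, by 2.30-fold and 2.35-fold, and IGFBP7 was 2.35-fold lower in KO than in HET. The receptor genes stayed within 2-fold, with IGF1R at 68.7 CPM in KO, 82.1 CPM in HET and 81.9 CPM in WT, and IGF2R at 88.1 CPM in KO, 83.3 CPM in HET and 59.2 CPM in WT CHGA-high cells. Between the classes, IGFBP2, IGFBP6 and IGFBP7 were 2-fold lower in CHGA-high cells of every library, IGF2BP3 in KO and IGFBP4 in WT, while IGF2 itself was higher there. Of 6 other genes of CDK inhibitors, 1 passed the level filter. CDKN1A, which encodes p21, was lower in CHGA-high than in CHGA-low cells by 2.82-fold in KO and 2.01-fold in HET, unlike CDKN1C, and was 79.1 against 133 CPM in WT.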

How the data were processed

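Per the file headers, the deposited tables hold raw UMI counts per gene and barcode from Cell Ranger 6.1.2. Seurat and GRCh38 stand in the submitters' processing notes without a role. For the annotation release and the aligner settings, nothing is given in the sources used here. Groups came from the sample titles, with 1 library each.

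Barcodes were kept with at least 1000 UMIs, 500 genes and at most 20% mitochondrial UMIs. Scrublet (scanpy 1.11.5) called 0 doublets in each library and so did not work, and no cell was removed as a doublet. Free RNA was not subtracted. Counts were summed per library and CHGA class and scaled to CPM with TMM factors over the 6 sums (edgeR 4.0.16, R 4.3.3). The sums held 15929515 UMIs in KO, 10349372 in HET and 25722492 in WT CHGA-high cells, and 128091799 in KO, 124336753 in HET and 112520446 in WT CHGA-low cells. Levels have exact Poisson intervals, ratios exact conditional binomial intervals and shares exact Clopper-Pearson intervals, at 95% (Python 3.11.15, scipy 1.17.1). These cover counting error only and reach 9.81% of the level for the 6 members above 50 CPM and 58% for MEG3 and PLAGL1. A gene was called 2-fold apart when it had at least 50 CPM in 1 of the 2 sums. No test was run, because a genotype had 1 library.

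CHGA-high cells were grouped by a leading hormone at 100 or more UMIs per 10000, then TPH1, then PHOX2A, TLX2 and CHRNA3. CHGA-low cells were grouped by the marker set furthest above its own mean, a rule chosen after seeing the data. The group by COL1A1, COL3A1, LUM, DCN and PDGFRB had 0.957 CPM of LUM in KO and 1.15 CPM in WT, against 148 CPM in HET. All members were named, and from each other list at most the 4 genes with the largest ratio among those called in a comparison. The neighbours of PEG3, KCNQ1OT1, SGCE, NDN, PWAR6, SNURF, BLCAP, MEG8, RTL1, DNMT1, TRIM28, ZNF445, IGF1R and IGF2R were named beside a member or list after their values were seen. The members and lists were chosen with earlier results of these data known. Coordinates are those of GENCODE 29 on GRCh38, in which 33456 of 33538 genes were found by identifier. The counting steps were tested on simulated data.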

Additional observations from a re-analysis of the deposited data

Results flagged for a closer look

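NNAT differed from WT in opposite directions in the 2 classes of cells of the KO library. The log2 ratio of KO to WT was -0.38 (-0.48 to -0.29) in CHGA-high cells and 0.63 (0.57 to 0.69) in CHGA-low cells. KO was below WT in 5 of 5 CHGA-high groups and above WT in 11 of 11 CHGA-low groups. Of those 5, the KO and WT counting intervals stood apart only in cells led by insulin, and in some CHGA-low groups they overlapped. The 19 WT cells led by GHRL, too few to be among the 5, lay below KO, at 44.7 against 75.3 CPM. The difference between the classes was not tested, since each genotype had 1 library.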

How the results depend on the processing

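No paired analysis was possible because each genotype had 1 library, so no replicate could be left out either. The count of member values 2-fold apart between libraries was 1 in CHGA-high cells. It was 2 with plain CPM, with stricter cell filters (3000 UMIs, 10% mitochondrial UMIs) and with marker groups weighing the same, 5 with no filter on low values and 5 at 1.5-fold. With equal weights DLK1 in KO against WT was the added call, at a log2 ratio of -1.03. In CHGA-low cells the count was 5, against 2 with equal weights, 10 with no filter and 8 at 1.5-fold. Between the classes of cells it was 7, and 11 with no filter. Neither class had an all-or-none member with limits of 20 and 2 CPM or with the top 8% of doublet scores removed. Calls over the 9 comparisons were 8 for other imprinted genes (18 at 20 CPM, 53 with no filter, 20 at 1.5-fold) and 0 for imprint maintenance (10 with no filter, 4 at 1.5-fold). They were 16 for the IGF axis (31 with no filter, 28 at 1.5-fold) and 2 for CDK inhibitors (7 at 20 CPM, 15 with no filter, 1 with plain CPM). At 50 CPM and 2-fold, by comparison and direction, 0.352% to 2.77% of all genes were called between libraries and 6.81% to 13.5% between the classes. The share of all genes was not computed at the other settings. The member and list counts at those settings therefore have no background and are not read as results about these genes. No called member value changed sign under any setting. The WT ratio of DLK1 between the classes moved from a log2 of 4.82 to 4.01 with CHGA at 20 and 5.96 with CHGA-low under 1 per 10000. In CHGA-low cells DLK1 became a call with CHGA at 20 per 10000, at -1.74 in KO and -1.56 in HET against WT. The cause of these shifts was not tested. Shares of cells moved with depth, in 47 of 54 cases without thinning.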
